A study of Mus musculus with 9 samples.

Results

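The 6 conventional actin genes of the mouse, Acta1, Acta2, Actc1, Actg2, Actb and Actg1, were followed in RNA-seq of whole uterus. They were taken by gene symbol from the deposited table, which holds 31274 symbols, and each of the 6 symbols had a row. The libraries came from 9 C57BL/6 mice on day 4.5 of pseudopregnancy, 1 library per mouse. In 4 control mice, Wnk1f/f, both copies of the kinase gene Wnk1 carried loxP sites around 1 exon and were intact. In 5 Wnk1d/d mice Cre recombinase expressed from the progesterone receptor locus removed the floxed exon of both copies. This Cre acts in the uterine cells that express the progesterone receptor, which include epithelium, stroma and smooth muscle, and also in the ovary and pituitary, while endothelial and immune cells keep the gene. The mice were young adult virgin females mated to vasectomized males, so that no embryo was present in the tissue. The comparison of Wnk1d/d with Wnk1f/f uteri asks how loss of the kinase changes the receptive uterus, and here it asks which actins the tissue expressed and in what proportions. Values are FPKM, fragment counts corrected for exon length and for the size of the library, so that levels can be set beside each other between genes of different length. FPKM does not keep the number of fragments counted, and no interval for counting error was given.

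Actin is the monomer of the thin filament of muscle and of the cortical and stress fibre network of other cells. Vertebrates express it from a small family of genes whose proteins differ mostly at the acidic amino terminus. Acta2 and Actg2 encode the alpha and gamma actins of smooth muscle, the former also found in pericytes and myofibroblasts and the latter typical of visceral muscle such as the gut wall and the myometrium. Acta1 and Actc1 encode the alpha actins of skeletal and cardiac muscle, and Actb and Actg1 the beta and gamma actins of the cytoplasm of nearly all cells. Many muscle actin genes are targets of serum response factor (SRF) with its coactivators of the myocardin family, which bind the CArG box of promoters. Unassembled actin monomer in turn holds the myocardin-related coactivators in the cytoplasm.

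In GENCODE release M21 on mm10 the 6 genes lie on 6 chromosomes, each on the minus strand: Acta1 at chr8:123891769-123894751, Acta2 at chr19:34241090-34255590, Actc1 at chr2:114047282-114053548, Actg2 at chr6:83512905-83536265, Actb at chr5:142903115-142906754 and Actg1 at chr11:120345690-120348542. Their coding sequences have 1128 to 1134 bases including the stop codon. Over the 15 pairs of isoforms the coding sequences were 81.5% to 88.7% identical, with the highest identity between Actb and Actg1 and the lowest between Actg1 and either Acta2 or Actc1. The first 48 coding bases of each gene, which hold the variable amino terminus, are shown from the GENCODE transcripts because they are where the isoforms are told apart. Capitals mark bases that differ from Acta2, or have no partner in it, in a global alignment of the coding sequences.
Acta2: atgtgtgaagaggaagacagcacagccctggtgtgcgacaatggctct
Actg2: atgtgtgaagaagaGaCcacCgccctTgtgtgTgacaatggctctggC
Acta1: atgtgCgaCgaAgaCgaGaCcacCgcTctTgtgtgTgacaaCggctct
Actc1: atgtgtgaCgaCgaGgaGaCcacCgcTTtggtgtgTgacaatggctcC
Actb: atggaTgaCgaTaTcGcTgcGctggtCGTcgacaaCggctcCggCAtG
Actg1: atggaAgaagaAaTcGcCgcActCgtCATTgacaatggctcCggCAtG

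Reads of 75 bases can tell most of these transcripts apart. Of all 75-base windows of the main coding transcript, none of Acta2, Actg2 or Actc1 occurred in a transcript of another gene (0 of 1961, 0 of 1259 and 0 of 1399 windows), and none came within 2 mismatches of another isoform. Acta1 and Actb shared 3 windows with each other, and 0.437% of the windows of Acta1 and 2.60% of those of Actb occurred in some other annotated transcript. Actg1 was different: 54.5% of its windows (1023 of 1878) were found unchanged in transcripts of 10 other genes, among them the annotated processed pseudogenes Gm12715 and Gm8399, but in no other isoform. How the authors' counting divided reads between Actg1 and these genes is not given in the sources used here, so the level of Actg1 is the least certain of the 6.

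**Figure D1:**
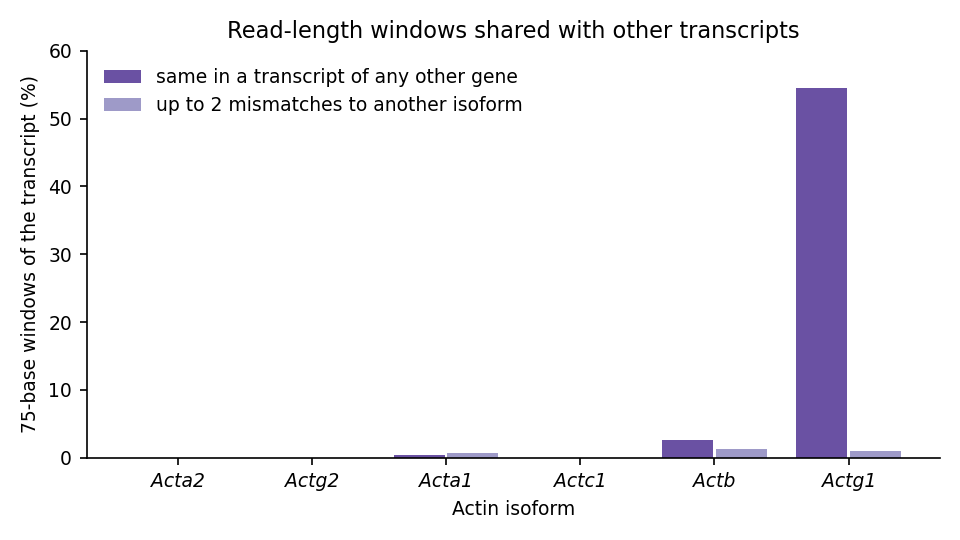
Percent of the 75-base windows of each isoform's main coding transcript that occur unchanged in a transcript of any other gene (dark bars) or come within 2 mismatches of another actin isoform (light bars). Actg1 stands at 54.5% for other genes, Actb at 2.60%, Acta1 at 0.437%, and Acta2, Actg2 and Actc1 at 0.

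The targeted gene was lower in each Wnk1d/d library. Wnk1 stood at 44.9, 43.4, 47.3 and 45.5 FPKM in Wnk1f/f replicates 1 to 4 and at 33.9, 29.9, 31.0, 30.2 and 31.3 FPKM in Wnk1d/d replicates 1 to 5. The genotypes did not overlap. These values are for the whole gene, not for the removed exon, which was not looked at. Defining markers of myometrial smooth muscle were abundant in all 9 libraries: Myh11, the smooth muscle myosin heavy chain, ranged from 336 to 1022 FPKM, and Des, the muscle intermediate filament protein desmin, from 255 to 1183 FPKM. Of the libraries, Wnk1f/f replicate 4 had the lowest level of each of the 6 actin isoforms among all 9. It also had a summed FPKM of 10 liver markers of 210, against 31.6 to 50.3 in the other libraries. Its sums of leukocyte markers (400 FPKM) and pericyte markers (196 FPKM) were the highest of all 9 as well. The part of these in the actin levels was not tested. Wnk1d/d replicate 2 was the lowest of its genotype for each isoform.

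A gene was called differentially expressed (a DEG) when its mean was above 1 FPKM in at least 1 genotype, its limma p adjusted by the Benjamini-Hochberg method was under 0.05, and its means differed at least 1.5 times. Fold changes are differences in mean log2(FPKM + 1), a scale that understates the change of genes with low FPKM. Of the 5 isoforms with a mean above 1 FPKM in both genotypes, 4 were DEGs with higher levels in Wnk1d/d uteri, as were 5.09% of the 14728 genes tested. All 5 had higher levels with an adjusted p under 0.05, as did 11.1% of the genes tested, and in 3 of the 5 every Wnk1d/d library lay above every Wnk1f/f library, as in 9.27% of the genes tested. Actc1 passed the filter only through the Wnk1d/d libraries and is described by itself. The median log2 fold change of all tested genes was 0.00. In bulk tissue, more cells of a type and more RNA per cell cannot be told apart, and this holds for each level and share that follows.

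The smooth muscle actins were the most abundant isoforms of the Wnk1d/d uterus. Acta2, the vascular and general smooth muscle alpha actin, had 1483, 1025, 1293 and 667 FPKM in Wnk1f/f replicates 1 to 4 and 2128, 1758, 2494, 3049 and 2826 FPKM in Wnk1d/d replicates 1 to 5. The lowest Wnk1d/d library, replicate 2, lay above the highest control, replicate 1, so the genotypes did not overlap. Mean levels were 1117 ± 354 FPKM (SD, n = 4) and 2451 ± 521 FPKM (SD, n = 5), a ratio of 2.19 (log2 fold change 1.17 with a standard error of 0.25, limma adjusted p = 0.0134). In order of mean level among the tested genes, Acta2 moved from place 39 in Wnk1f/f to place 15 in Wnk1d/d uteri.

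Actg2, the visceral smooth muscle gamma actin, differed more. It had 873, 525, 806 and 273 FPKM in Wnk1f/f replicates 1 to 4 and 2007, 1478, 2519, 2882 and 3004 FPKM in Wnk1d/d replicates 1 to 5. The gap between the genotypes was wide, and within the controls replicate 4 was low and replicates 1 and 3 were alike. The means were 619 ± 276 FPKM (SD, n = 4) and 2378 ± 635 FPKM (SD, n = 5), a ratio of 3.84 (log2 fold change 2.03 with a standard error of 0.35, limma adjusted p = 0.0067). Its place in the order of mean levels went from 92 to 17. Exact two-sided permutation tests over all arrangements of the libraries into 4 and 5, counting absolute differences at least as large as the observed one, gave p = 0.0079 for Acta2 and for Actg2, the smallest p that 4 against 5 libraries allow.

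**Figure D2:**
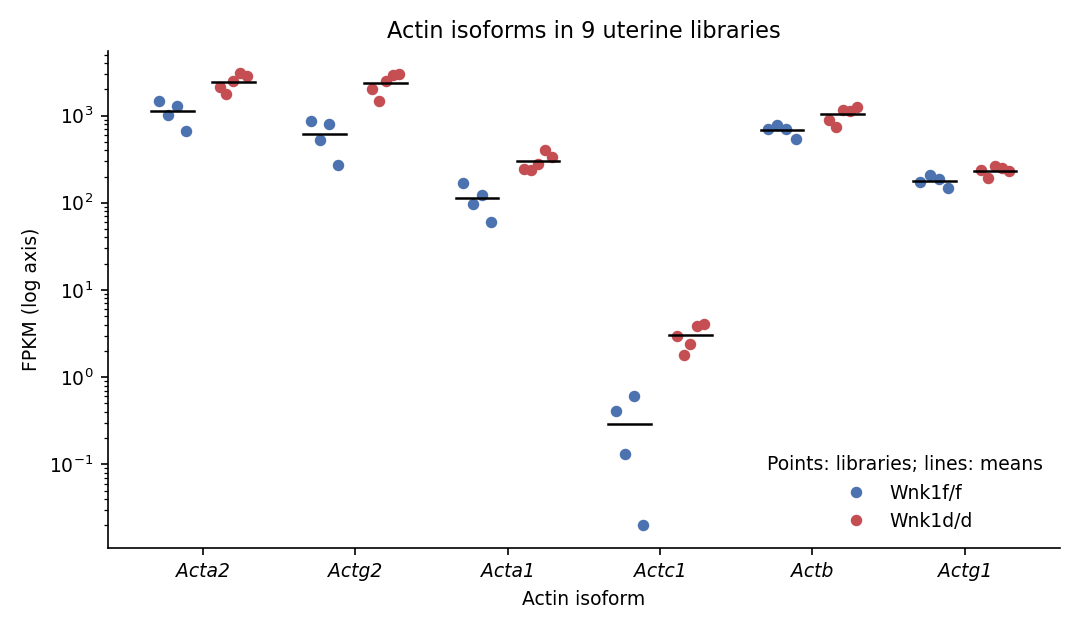
FPKM of each actin isoform on a log axis, with 1 point per library (4 Wnk1f/f in blue, 5 Wnk1d/d in red) and a line at each mean. For Acta2, Actg2, Acta1 and Actc1 every red point lies above every blue point, while for Actb and Actg1 the lowest red point lies within the blue range.

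Acta1, the skeletal muscle alpha actin, was also well expressed in the uterus. Its levels were 168, 97.4, 122 and 60.4 FPKM in Wnk1f/f replicates 1 to 4 and 245, 235, 275, 399 and 335 FPKM in Wnk1d/d replicates 1 to 5. No Wnk1d/d library reached down to the controls, and the highest was replicate 4. The means were 112 ± 45.0 FPKM (SD, n = 4) and 298 ± 68.6 FPKM (SD, n = 5), a ratio of 2.66 (log2 fold change 1.47 with a standard error of 0.27, limma adjusted p = 0.0084). By exact permutation p was 0.0079 here too.

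Actc1, the cardiac muscle alpha actin, was near the floor in controls. Its FPKM was 0.41, 0.13, 0.61 and 0.02 in Wnk1f/f replicates 1 to 4 and 2.99, 1.81, 2.42, 3.81 and 4.08 in Wnk1d/d replicates 1 to 5. All 5 Wnk1d/d libraries lay above the controls, yet Actc1 stayed far below the other isoforms, at place 12268 in the order of mean levels in Wnk1d/d uteri, against place 300 for Actg1. The means were 0.293 ± 0.268 FPKM (SD, n = 4) and 3.02 ± 0.945 FPKM (SD, n = 5), with a log2 fold change of 1.63. A gene that enters the test only through the group where it is high had to differ, so its test is not used here. Because the control values are so low, the size of this change depends on the pseudocount: the log2 fold change was 3.25 with a pseudocount of 0.1 and 4.0 with a pseudocount of 0.01.

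The cytoplasmic actins differed less, and their genotypes overlapped. Actb, which supplies beta actin to most cells, had 706, 774, 699 and 542 FPKM in Wnk1f/f replicates 1 to 4 and 890, 742, 1160, 1126 and 1240 FPKM in Wnk1d/d replicates 1 to 5. Wnk1d/d replicate 2 fell within the controls and the other 4 lay above them. The means were 680 ± 98.0 FPKM (SD, n = 4) and 1032 ± 208 FPKM (SD, n = 5), a ratio of 1.52 (log2 fold change 0.59 with a standard error of 0.17, limma adjusted p = 0.0388), just over the fold criterion. Actg1, the cytoplasmic gamma actin, had 174, 210, 185 and 146 FPKM in Wnk1f/f replicates 1 to 4 and 237, 190, 262, 249 and 232 FPKM in Wnk1d/d replicates 1 to 5. Again only Wnk1d/d replicate 2 lay within the controls. The means were 179 ± 26.5 FPKM (SD, n = 4) and 234 ± 27.2 FPKM (SD, n = 5), and with a ratio of 1.31 Actg1 was not a DEG (log2 fold change 0.39 with a standard error of 0.12, limma adjusted p = 0.0486). By exact permutation p was 0.024 for both genes. Neither adjusted p stayed under 0.05 when any 1 of 7 libraries was left out, which were Wnk1f/f replicates 1, 3 and 4 and Wnk1d/d replicates 1, 3, 4 and 5: in those 7 fits the log2 fold change of Actb was 0.48 to 0.63 (limma adjusted p 0.0516 to 0.101) and that of Actg1 was 0.30 to 0.41 (limma adjusted p 0.0728 to 0.120). Quantile normalization also took both above 0.05 (limma adjusted p = 0.0718 and 0.107), as did testing without the filter (limma adjusted p = 0.0782 and 0.0683).

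Within a genotype the isoforms could be put in order by FPKM, and the order differed between the genotypes. In Wnk1f/f uteri the mean levels ran Acta2, Actb, Actg2, Actg1, Acta1 and Actc1. Acta2 was above Actb in 4 of 4 control libraries although their ranges over libraries overlapped, Actb and Actg2 could not be ordered, with Actg2 higher in 2 of 4, and Actg1 was above Acta1 in 4 of 4, with overlapping ranges. In Wnk1d/d uteri the order was Acta2, Actg2, Actb, Acta1, Actg1 and Actc1. Acta2 and Actg2 did not differ beyond their spread, with Acta2 higher in 3 of 5 libraries, while Actg2 was above Actb in 5 of 5 without overlap of their ranges and Acta1 above Actg1 in 5 of 5 with overlap. Within 4 or 5 libraries a paired exact permutation test cannot go below p = 0.125 or p = 0.0625, so the orders are given as counts only.

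Shares of the summed actin FPKM take out the scaling of a library. The sum of the 6 isoforms was 3404, 2631, 3107 and 1689 FPKM in Wnk1f/f replicates 1 to 4 and 5509, 4405, 6712, 7709 and 7641 FPKM in Wnk1d/d replicates 1 to 5, with no overlap. As a percent of the summed FPKM of all tested genes it did overlap: it was 0.246% to 0.576% in controls and 0.774% to 1.09% in 4 Wnk1d/d libraries, but 0.375% in Wnk1d/d replicate 4. That replicate had the highest actin sum, 7709 FPKM. Its summed FPKM of all tested genes, the denominator, was far above that of any other library. The median log2(FPKM + 1) of the tested genes was 3.79 to 3.82 in all libraries, Wnk1d/d replicate 4 included. The 4 muscle isoforms together made up 74.2%, 62.6%, 71.5% and 59.3% of the actin sum in the controls and 79.6%, 78.8%, 78.8%, 82.2% and 80.7% in Wnk1d/d uteri. The control shares thus spread over a wide range while the Wnk1d/d shares lay close together, above all controls. The largest difference in share was that of Actg2, which held 25.7%, 20%, 26.0% and 16.2% in Wnk1f/f replicates 1 to 4 and 36.4%, 33.6%, 37.5%, 37.4% and 39.3% in Wnk1d/d replicates 1 to 5, so the means of 21.9% ± 4.74 (SD, n = 4) and 36.8% ± 2.11 (SD, n = 5) were 14.9 percentage points apart and the genotypes did not overlap (exact permutation test p = 0.0079).

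The share of Acta2 was nearly level. It was 43.6%, 39.0%, 41.6% and 39.5% in the controls and 38.6%, 39.9%, 37.2%, 39.6% and 37.0% in Wnk1d/d uteri, and the groups overlapped (difference -2.47 percentage points, exact permutation test p = 0.10). The share of Acta1 was 3.58% to 4.92% in controls and 4.10% to 5.34% in Wnk1d/d uteri, also overlapping (difference 0.656 percentage points, exact permutation test p = 0.14). Actc1 made up at most 0.0196% of the sum in controls and 0.0361% to 0.0543% in Wnk1d/d uteri. Although both cytoplasmic actins had higher FPKM in Wnk1d/d uteri, their shares were lower there without overlap. Actb went from 26.2% ± 5.43 (SD, n = 4) to 16.2% ± 1.02 (SD, n = 5) and Actg1 from 6.92% ± 1.67 (SD, n = 4) to 3.76% ± 0.595 (SD, n = 5), each with an exact permutation test p = 0.0079. The 6 shares sum to 100% in a library, so these 6 comparisons are not independent of each other.

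**Figure D3:**
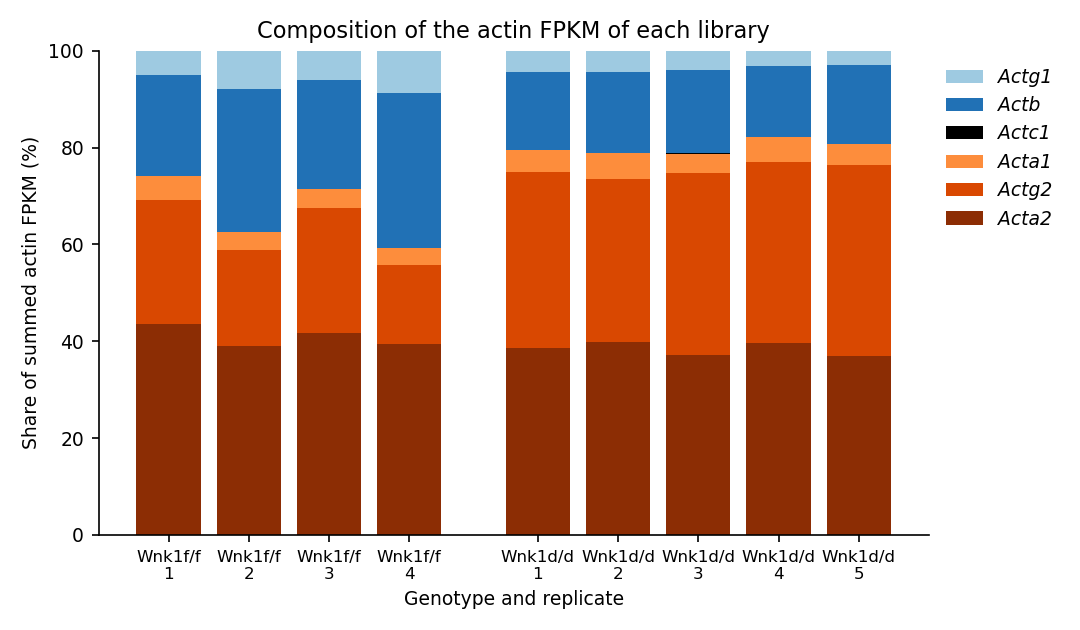
Share of each isoform in the summed FPKM of the 6 actins, 1 bar per library. The Actg2 segment takes 16.2% to 26.0% of the 4 Wnk1f/f bars and 33.6% to 39.3% of the 5 Wnk1d/d bars, the Actb segment takes less of each Wnk1d/d bar, and Actc1, at no more than 0.0543%, is too thin to see.

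The denominator decides how the shares of Acta2, Acta1 and Actb read. Among the 4 muscle isoforms alone, Acta2 went from 61.5% ± 3.91 (SD, n = 4) to 48.1% ± 1.78 (SD, n = 5) and Actg2 from 32.5% ± 3.93 (SD, n = 4) to 46.0% ± 2.34 (SD, n = 5), both without overlap (exact permutation test p = 0.0079), whereas Acta1 kept 6.02% and 5.86% (exact permutation test p = 0.69). With Actg2 left out of the sum, the shares of Acta2 and Acta1 were instead 8.23 and 2.21 percentage points higher in Wnk1d/d uteri, and the differences of Actb and Actg1 were -7.63 and -2.87 points, so the muscle isoforms gained on the cytoplasmic ones without Actg2 as well. Between the 2 cytoplasmic isoforms the shares overlapped, with 78.6% to 80.3% for Actb in controls and 79.0% to 84.2% in Wnk1d/d uteri (exact permutation test p = 0.11).

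The pair of smooth muscle actins shows the change most directly. The ratio of Actg2 to Acta2 was 0.589, 0.512, 0.623 and 0.409 in Wnk1f/f replicates 1 to 4 and 0.943, 0.841, 1.01, 0.945 and 1.06 in Wnk1d/d replicates 1 to 5. Actg2 thus went from well below Acta2 to about the same level, and it exceeded Acta2 in 0 of 4 controls and 2 of 5 Wnk1d/d libraries. Set against Myh11, the ratio of Actg2 ranged from 0.813 to 1.5 in controls and from 2.27 to 3.18 in Wnk1d/d uteri, that of Acta2 from 1.99 to 2.66 and from 2.70 to 3.37, and that of Acta1 from 0.180 to 0.253 and from 0.327 to 0.441. For each of these 3 isoforms the ratios of the genotypes did not overlap, but for Acta2 and Acta1 this depended on the reference. Against Des and Cnn1, references added after seeing the data, the ratio of Actg2 again did not overlap (1.07 to 2.09 and 2.44 to 2.97 for Des, 1.54 to 2.13 and 2.69 to 3.15 for Cnn1). The ratio of Acta2 overlapped (2.61 to 3.36 and 2.58 to 3.11 for Des, 3.42 to 3.83 and 2.85 to 3.45 for Cnn1), as did that of Acta1. Against Des and Cnn1 the mean ratios were 0.962 and 0.842 times those of controls for Acta2, so lower, and 1.19 and 1.05 times for Acta1. Against the summed smooth muscle list, described below and also added after seeing the data, none of the 3 overlapped, with mean ratios 1.97, 1.10 and 1.37 times those of controls for Actg2, Acta2 and Acta1.

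**Figure D4:**
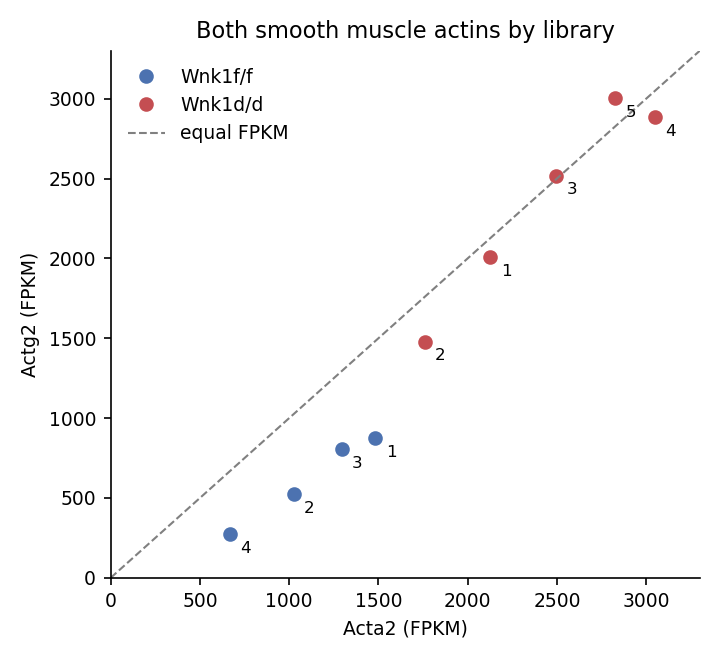
FPKM of Actg2 against FPKM of Acta2 in each library (blue, 4 Wnk1f/f; red, 5 Wnk1d/d; numbers are replicates), with a dashed line where both are equal. The controls lie below the line, at ratios of 0.409 to 0.623, and the Wnk1d/d libraries lie near it, at 0.841 to 1.06.

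To see which genes varied with each isoform from mouse to mouse, genotype means were subtracted from log2(FPKM + 1) and the isoforms were correlated over the 9 libraries with the 11042 other tested genes of at least 5 FPKM (11043 for Actc1). The values describe these libraries, which all genes share, and no test was made. The genes most like Acta2 were Tpm2 (r = 0.995), Pcp4l1, Cnn1, Csrp1 and Actg2 (r = 0.988), and those most like Actg2 were Fbxl22 (r = 0.993), Acta2, Tpm2, Tpm1 and Cnn1. Tpm1 and Tpm2 encode muscle tropomyosins and Cnn1 encodes calponin, proteins that sit on the thin filament. Acta1 went with Myl9, the smooth muscle myosin regulatory light chain (r = 0.983), Tpm2, Dmpk, Hspa2 and Acta2. The nearest genes of the other isoforms were not on the smooth muscle list: Ptch1 (r = 0.980), Snupn, Btg3, Cox7a1 and Trps1 for Actc1, Alg1 (r = 0.969), Rnf187, Snapc1, Mrps11 and Efemp2 for Actb, and Anxa2 (r = 0.995), Mdh2, Dpy19l3, Ssna1 and Tmem29 for Actg1. The median r with the 22 genes of the smooth muscle list was 0.938 for Acta2, 0.918 for Acta1, 0.907 for Actg2, 0.817 for Actc1, 0.717 for Actb and 0.477 for Actg1, against medians of 0.0660 to 0.107 with all genes compared. Without Wnk1f/f replicate 4 and Wnk1d/d replicate 2, a choice made after seeing the data, the medians with the list were 0.927 for Acta2, 0.934 for Acta1 and 0.931 for Actg2, but 0.686 for Actc1, 0.25 for Actb and -0.658 for Actg1. The medians of Actc1, Actb and Actg1 were thus lower without these libraries. Both were the lowest of their genotype for each isoform, so leaving them out narrows the range that is correlated. The cause of the lower values was not tested.

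The muscle isoforms were set beside a list of other thin filament and contractile genes, which was not tested as a set. Of 22 smooth muscle contractile genes 20 were DEGs with higher levels in Wnk1d/d uteri and 0 with lower levels, and the median log2 fold change was 0.89. The shares over all genes tested were 5.09% with higher levels and 5.18% with lower levels. Tagln, an actin crosslinking protein of smooth muscle and the most abundant of the list, had 1722 ± 553 FPKM (SD, n = 4) in Wnk1f/f and 3512 ± 932 FPKM (SD, n = 5) in Wnk1d/d uteri (log2 fold change 1.04, limma adjusted p = 0.0255). Tpm1, a tropomyosin and the next most abundant, had a log2 fold change of 1.03 (limma adjusted p = 0.0202). The largest difference was that of Cnn1 (log2 fold change 1.41, limma adjusted p = 0.0112), followed by Des (1.22, limma adjusted p = 0.0102) and Myl9 (1.17, limma adjusted p = 0.0123). The fold change of Actg2 was larger than that of any gene of the list, and that of Acta2 was exceeded only by Cnn1, Des and Myl9. The list's summed FPKM was 8918, 5897, 7310 and 4272 in Wnk1f/f replicates 1 to 4 and 11731, 9334, 12934, 16481 and 15707 in Wnk1d/d replicates 1 to 5, lowest in the same library of each genotype as the actins. The count of DEGs fell to 11 without Wnk1f/f replicate 4, to 12 without Wnk1f/f replicate 2 and to 12 without Wnk1d/d replicate 3.

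Genes of the striated sarcomere were looked at because Acta1 and Actc1 are the actins of that structure. Of 39 such genes 15 passed the filter, none of them through the Wnk1d/d libraries only and 1 through the Wnk1f/f libraries only, where it was high. Among these 15, 6 were DEGs with higher levels and 0 with lower levels, with a median log2 fold change of 0.74 that includes the 1 gene. Over all genes tested the shares were 5.09% and 5.18%. Tnni2 and Tnnt3, the fast skeletal troponins I and T, had 25.3 ± 7.40 and 14.5 ± 3.49 FPKM (SD, n = 4) in Wnk1f/f and 82.0 ± 16.9 and 43.2 ± 17.4 FPKM (SD, n = 5) in Wnk1d/d uteri (log2 fold changes 1.68 and 1.45, limma adjusted p = 0.0023 and 0.010). Mybpc1, a myosin-binding protein C, also rose (log2 fold change 1.13, limma adjusted p = 0.0020), as did Mybpc2, Ckm and Casq1. Of the 15 genes 6 had lower mean log2 levels in Wnk1d/d uteri. One of the 6 is the gene that passed only through the Wnk1f/f libraries, which had to be lower and is no support. Among the others were the slow skeletal troponin T, Tnnt1 (log2 fold change -0.48, limma adjusted p = 0.0402), and the cardiac troponin I, Tnni3 (-0.34, limma adjusted p = 0.0381), both under the fold criterion. Mybpc2, Ckm, Casq1, Tnnt1 and Tnni3 are named after their values were seen.

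Other genes of skeletal and heart muscle ranged from absent to clearly expressed, and those named here were chosen after their values were seen. The fast myosin heavy chain Myh1 was listed at 0 in 8 of 9 libraries and Myh4 in 6 of 9, with no value above 0.01 FPKM, and Xirp2 was listed at 0 in all 9. The skeletal myosin light chain Mylpf had 1.10 to 2.13 FPKM in controls and 1.76 to 2.15 FPKM in Wnk1d/d uteri. Of the atrial and cardiac genes, Myl7 did not exceed 0.63 FPKM, and Myh6 had 1.44 and 1.15 FPKM in Wnk1f/f replicates 3 and 4 and at most 0.02 FPKM in the other 7 libraries. Tnnt1 (6.39 to 12.3 FPKM over all libraries), Tnni3 (6.44 to 10.9 FPKM) and the atrial light chain Myl4 (7.23 to 10.1 FPKM) were present in each library, and the cardiac troponin T, Tnnt2, had 0.40 to 5.67 FPKM in controls and 3.95 to 11.3 FPKM in Wnk1d/d uteri. The whole list of 39 genes summed to 86.6 to 117 FPKM in controls and 168 to 255 FPKM in Wnk1d/d uteri, with Tnni2 alone making up 35.1% of the mean sum.

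Among SRF and its coactivators 9 genes were tested, 3 were DEGs with higher levels and the median log2 fold change was 0.15. Of all genes tested 5.09% were DEGs with higher levels. Srf itself had 42.3 ± 8.20 FPKM (SD, n = 4) in Wnk1f/f and 50.8 ± 6.62 FPKM (SD, n = 5) in Wnk1d/d uteri and missed the threshold (log2 fold change 0.27, limma adjusted p = 0.18). Myocd, the muscle coactivator myocardin, had 2.60 ± 0.753 FPKM (SD, n = 4) and 6.18 ± 1.31 FPKM (SD, n = 5) (log2 fold change 1.0, limma adjusted p = 0.0066). The LIM-only proteins Fhl1 and Fhl2 were the other DEGs, with log2 fold changes of 1.12 and 0.63 (limma adjusted p = 0.0068 and 0.0486). Elk4 and Elk3, which encode partners of SRF and are named after their values were seen, were lower without overlap. So were 1558 of the 14728 genes tested. Elk4 and Elk3 stayed under the fold criterion (-0.35 and -0.26, limma adjusted p = 0.0186 and 0.0307). The count of DEGs was 2 when any library but Wnk1f/f replicate 1 or Wnk1d/d replicate 2 was left out.

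Because SRF binds the CArG box, the promoter windows of the isoforms were searched for it. The box was spelled as CC, 6 letters each A or T, then GG, a pattern that reads the same on both strands, and a looser form allowed 1 of the 6 inner letters to be C or G. RefSeq windows on GRCm38.p6, of 250 bases before and 50 after the start, were held for 4 of the 6 isoforms, and Actg2 and Actb had no entry. Of 32851 windows of this length 1.63% held the strict box and 9.98% the looser form. Acta1, Actc1 and Actg1 each had 1 strict match, which began 73, 47 and 90 bases before the start. Acta1 had 2 further looser matches and Actc1 had 3, and Acta2 had 2 looser matches, which began 84 and 34 bases before the RefSeq start, and no strict one. A strict match thus stood in 1 cytoplasmic isoform and in both striated isoforms, while Actg2 and Actb could not be searched. A match is a description of letters only, and its part in the levels was not tested. The sequences are shown to let the boxes be compared, from the minus strand and only where GENCODE has no exon: Acta1 at chr8:123894776-123895025, Actc1 at chr2:114052888-114053125 and Actg1 at chr11:120348543-120348745. For Acta2, where both matches lie within the annotated first exon, the 30 bases around each match are shown, at chr19:34255438-34255467 and chr19:34255388-34255417. Capitals mark strict and looser matches.
Acta1: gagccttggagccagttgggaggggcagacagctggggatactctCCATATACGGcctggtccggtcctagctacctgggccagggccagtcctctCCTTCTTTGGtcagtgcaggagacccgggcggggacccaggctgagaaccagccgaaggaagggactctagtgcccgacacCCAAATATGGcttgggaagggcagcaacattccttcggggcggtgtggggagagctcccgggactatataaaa
Actc1: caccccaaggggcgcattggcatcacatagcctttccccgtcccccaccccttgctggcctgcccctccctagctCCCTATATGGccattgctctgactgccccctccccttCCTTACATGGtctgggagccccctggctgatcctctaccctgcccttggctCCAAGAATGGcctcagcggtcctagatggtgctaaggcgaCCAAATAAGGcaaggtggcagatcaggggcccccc
Actg1: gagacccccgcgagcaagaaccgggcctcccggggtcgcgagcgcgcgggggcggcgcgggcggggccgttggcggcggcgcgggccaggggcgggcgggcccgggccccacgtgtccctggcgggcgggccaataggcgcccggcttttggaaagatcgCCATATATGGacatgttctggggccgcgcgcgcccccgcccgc
Acta2, upstream match: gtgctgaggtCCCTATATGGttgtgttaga
Acta2, downstream match: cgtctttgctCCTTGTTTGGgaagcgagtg

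Proteins that build and hold actin filaments changed in part. Of 16 bundling and crosslinking genes 5 were DEGs with higher levels, against 5.09% of all genes tested. The list had a median log2 fold change of 0.27, and the count was 5 whichever library was left out. The 1 DEG of the list with lower levels passed the filter only through the Wnk1f/f libraries, where it was high, and its call is not used. The 16 genes and the median include it. Vcl, the adhesion protein vinculin, had a log2 fold change of 1.06 (limma adjusted p = 0.0053), Actn1, an alpha actinin, of 0.83 (limma adjusted p = 0.0028), and Flna, filamin A, of 0.73 (limma adjusted p = 0.0199). Zyx, a focal adhesion protein and among the most abundant of the list, missed the threshold (log2 fold change 0.25, limma adjusted p = 0.0713).

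Among 25 tested genes that bind monomers, sever or cap filaments, 2 were DEGs with higher levels and 1 with lower levels (median log2 fold change 0.18). These shares of 8% and 4% were near the 5.09% and 5.18% of all genes tested. Tmsb4x, the chief monomer-sequestering thymosin, went from 5783 ± 616 FPKM (SD, n = 4) to 9569 ± 1539 FPKM (SD, n = 5), a log2 fold change of 0.72 (limma adjusted p = 0.0282), and Dstn, the severing protein destrin, had one of 0.63 (limma adjusted p = 0.0281). Scin, a gelsolin relative, was lower (log2 fold change -0.91, limma adjusted p = 0.0243). Profilin, Pfn1, which loads monomers onto growing ends, missed the threshold (log2 fold change 0.43, limma adjusted p = 0.0710). These calls depended on single libraries: none of the list was a higher DEG without Wnk1f/f replicate 2 or 4 or without Wnk1d/d replicate 1, 3, 4 or 5, 3 genes were in each of the other 3 fits, and the lower DEG was lost without Wnk1f/f replicate 1, 3 or 4 or Wnk1d/d replicate 3 or 5. After quantile normalization 0 were higher.

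The machinery that starts, elongates or folds actin moved little as a group. Of 32 tested nucleation and elongation genes the formin Diap3 was a DEG with higher levels (log2 fold change 0.86, limma adjusted p = 0.0382), and Daam2 and Was were DEGs with lower levels (-0.63 and -0.45, limma adjusted p = 0.0080 and 0.0493), with a median of 0.11. No higher DEG was left without Wnk1f/f replicate 1, 2 or 4 or Wnk1d/d replicate 1, 4 or 5, and the lower DEGs numbered 0 without Wnk1f/f replicate 4, 3 without Wnk1f/f replicate 1, 2 without Wnk1f/f replicate 2 and 1 in the other fits. The Arp2/3 subunit Arpc2 differed by 0.39 (limma adjusted p = 0.0073), under the fold criterion, and Arpc3 by 0.07 (limma adjusted p = 0.52). None of 8 non-muscle myosin II and tropomyosin genes was a DEG (median 0.08; Myl6 0.40, limma adjusted p = 0.16; Myl12b -0.05, limma adjusted p = 0.70), and none of 17 genes of actin folding and maturation was (median 0.16; the chaperonin subunit Cct5 0.06, limma adjusted p = 0.54; the prefoldin subunit Pfdn5 -0.13, limma adjusted p = 0.36), although 1 folding gene was a higher DEG without Wnk1f/f replicate 2. Among all genes tested 5.09% were DEGs with higher levels and 5.18% with lower levels.

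**Figure D5:**
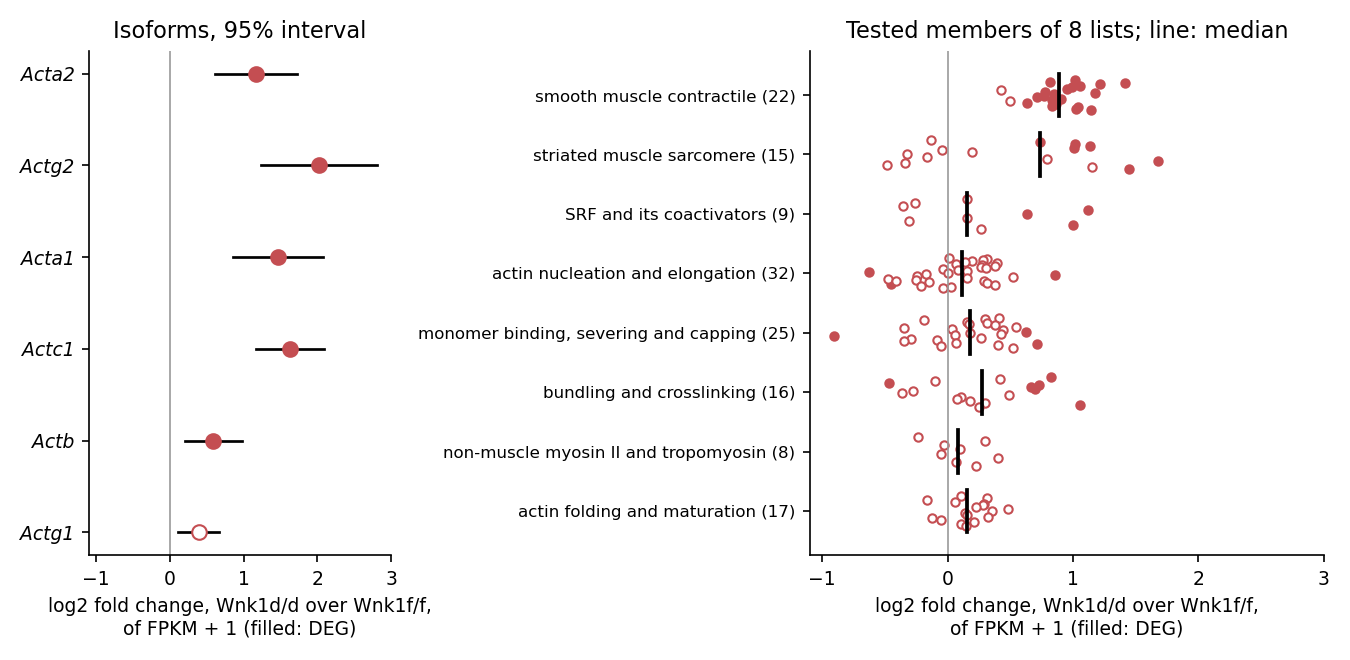
Left, log2 fold change of FPKM + 1, Wnk1d/d over Wnk1f/f, for each isoform with its 95% interval from limma; right, the same for tested members of 8 gene lists (number tested in brackets), with a line at each median. Filled points are DEGs. Actc1 passed the filter only through the Wnk1d/d libraries, and its test is not used. The smooth muscle list has a median of 0.89, and the lists of nucleation, non-muscle myosin and folding genes have medians of 0.11, 0.08 and 0.16.

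Markers of other uterine cell types were set beside the isoforms, since whole uterus mixes layers. For comparison, 5.18% of all genes tested were DEGs with lower levels and 5.09% with higher levels. Of 10 endothelial markers 8 were DEGs with lower levels and 0 with higher levels, with a median log2 fold change of -0.69. The most abundant were Esam and Pecam1 (log2 fold changes -0.63 and -0.65, limma adjusted p = 0.0280 and 0.0263), and the largest decreases were those of Vwf, Cdh5 and Tek (-1.08, -1.01 and -0.77, limma adjusted p = 0.0076, 0.0094 and 0.0128). The summed endothelial FPKM was 554, 605, 577 and 585 in Wnk1f/f replicates 1 to 4 and 237, 456, 299, 398 and 381 in Wnk1d/d replicates 1 to 5. The count of endothelial DEGs was 4 without Wnk1f/f replicate 4 or Wnk1d/d replicate 1, and 5 without Wnk1f/f replicate 1, Wnk1f/f replicate 2 or Wnk1d/d replicate 3. Of 8 pericyte markers, from cells that also express Acta2, 4 were DEGs with lower levels (median -0.53), among them Pdgfrb (log2 fold change -0.84, limma adjusted p = 0.0055), Abcc9 (-0.64, limma adjusted p = 0.0073) and Ndufa4l2 (-0.59, limma adjusted p = 0.0084). The most abundant pericyte gene, Rgs5, had a log2 fold change of -0.42 (limma adjusted p = 0.0225), and the list's sum was 166 to 196 FPKM in controls and 110 to 137 FPKM in Wnk1d/d uteri. Of the 8 pericyte markers 7 had lower levels, and Cspg4, named after its values were seen, had higher levels, from 10.8 to 16.1 FPKM (log2 fold change 0.52, limma adjusted p = 0.0278), under the fold criterion. A gene of the list became a higher DEG without Wnk1f/f replicate 1, Wnk1d/d replicate 1 or Wnk1d/d replicate 2.

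Epithelial markers differed little as a group, and stromal markers went in both directions. Beside them, DEGs with higher levels were 5.09% of all genes tested and those with lower levels 5.18%. Of 10 epithelial markers the DEGs were Krt7 and Cldn7, both higher (log2 fold changes 0.87 and 0.61, limma adjusted p = 0.0415 and 0.0404), while the most abundant, Cldn3 and Krt18, were level (0.12 and -0.06, limma adjusted p = 0.65 and 0.77). The epithelial count was 0 without Wnk1f/f replicate 1, Wnk1d/d replicate 1 or Wnk1d/d replicate 3, 2 without Wnk1d/d replicate 5 and 1 in the other fits, and it was 0 with library weights, without the filter and after quantile normalization. The epithelial sum was 1153 to 1710 FPKM in controls and 1290 to 1922 FPKM in Wnk1d/d uteri. Of 10 stromal markers Lum and Col1a1, which encode matrix proteins, were DEGs with higher levels (0.99 and 0.96, limma adjusted p = 0.0096 and 0.0052), Pdgfra and Hoxa11 were DEGs with lower levels (-0.78 and -0.59, limma adjusted p = 0.0085 and 0.0065). Hand2 and Hoxa10, named with Hoxa11 after their values were seen, were also lower without overlap, as were 1558 of the 14728 genes tested. Hand2 and Hoxa10 stayed under the fold criterion (-0.58 and -0.55, limma adjusted p = 0.0291 and 0.0062). The lower DEGs numbered 5 without Wnk1d/d replicate 2 or after quantile normalization, 3 without Wnk1f/f replicate 3 or Wnk1d/d replicate 4, and 1 without Wnk1f/f replicate 4, Wnk1d/d replicate 1 or Wnk1d/d replicate 3 or after median scaling. The stromal sum of 2803 to 3305 FPKM in controls overlapped that of 2879 to 3553 FPKM in Wnk1d/d uteri. The most abundant stromal genes, Col3a1 and Vim, differed under the fold criterion, in opposite directions (0.43 and -0.58, limma adjusted p = 0.0336 and 0.0151). Of 7 tested leukocyte markers and 8 tested liver markers none was a DEG, although 1 leukocyte marker was a lower DEG without Wnk1f/f replicate 1 and 1 liver marker a higher DEG without Wnk1f/f replicate 4. Of these markers, 1 of leukocytes and 5 of liver, Alb among them, passed the filter only through the Wnk1f/f libraries, where they were high. The most abundant leukocyte markers were Lyz2 and Nkg7 (log2 fold changes 0.00 and -0.44, limma adjusted p = 0.99 and 0.15). The most abundant liver markers were Trf (-0.37, limma adjusted p = 0.0702) and Alb. Alb had means of 20.1 FPKM in Wnk1f/f and 0.314 FPKM in Wnk1d/d uteri, with 77.7 FPKM in Wnk1f/f replicate 4, and its test is not used. The leukocyte sum was 227 to 400 FPKM in controls and 227 to 271 FPKM in Wnk1d/d uteri, and the liver sum was 31.6 to 210 and 32.3 to 50.3 FPKM. Both control maxima were those of Wnk1f/f replicate 4. The part of the cell type markers in the isoform levels was not tested.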

How the data were processed

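The authors aligned 75-base paired-end reads of uterine RNA to mm10 and deposited FPKM values for 9 libraries. The submitters' processing notes name TopHat2 2.0.4 and Cufflinks 2.0.2, whereas the methods of the study name a later release of Cufflinks for its Cuffdiff step. The gene annotation is not given in the sources used here. All columns were mapped to mice by their labels.

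From the deposited values log2(FPKM + 1) was computed without further scaling. A mean above 1 FPKM in either genotype kept 14728 genes, and limma 3.58.1 in R 4.3.3 compared them (trend, unpaired, Benjamini-Hochberg over all kept genes). The filter and the fold criterion of 1.5 follow the methods of the study, whose Cuffdiff needs alignments and was not used here. Single isoforms were tested by exact two-sided permutation of levels and shares in Python 3.11.15 (NumPy 2.4.6). Coding sequences were aligned with Biopython 1.88.

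The members, the 14 gene lists and the tests were chosen with earlier results of these data known. Named genes are the isoforms and Wnk1, from each list the 2 tested members of highest mean FPKM and up to 3 DEGs of largest absolute log2 fold change, and for each isoform the 5 most similar genes. A few other DEGs of short lists are named too, chosen after their values were seen, and not every DEG of a list is reported here by name. Alternatives were dropping the filter or raising it to 5 FPKM, pseudocounts of 0.1 and 0.01, quantile normalization or median scaling, library weights, robust limma or limma without its trend, other denominators of the shares, a replicate block, and leaving out each library. Leaving out Wnk1f/f replicate 4 and Wnk1d/d replicate 2 together, also for the correlations, was chosen after seeing the data.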

Additional observations from a re-analysis of the deposited data

Results flagged for a closer look

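In 66 groups of libraries (33 measures in 2 genotypes: levels, shares and ratios of the isoforms and sums of marker lists), 1 library stood apart from the rest of its genotype by Dixon's 95% value in 2, where chance gives about 1 in 20. The summed FPKM of liver markers was 210 in Wnk1f/f replicate 4, against 31.6 to 41.5 in the other controls. The summed FPKM of leukocyte markers was 227 in Wnk1d/d replicate 4, against 265 to 271 in the other Wnk1d/d libraries. No level or share of an isoform stood apart in this way.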

How the results depend on the processing

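In each fit tried, the 5 isoforms above 1 FPKM in both genotypes had a higher mean log2 level in Wnk1d/d uteri. Actc1 was higher in each fit that held it, but it had to be to pass the filter, so this is no support. With 1 library left out the log2 fold change ranged from 0.94 to 1.32 for Acta2, 1.68 to 2.24 for Actg2, 1.21 to 1.69 for Acta1, 1.52 to 1.75 for Actc1, 0.48 to 0.70 for Actb and 0.30 to 0.47 for Actg1, and the adjusted p was at most 0.0352 for Acta2, Actg2 and Acta1. Actb was 0.59 without the filter (adjusted p = 0.0782) and 0.42 after quantile normalization (0.0718). Actg1 was 0.39 without the filter (adjusted p = 0.0683) and with robust estimation (0.0503), 0.40 after median scaling (0.0507) and 0.22 after quantile normalization (0.107). The cause of these losses was not tested. At a filter of 5 FPKM Actc1 was not tested. Without Wnk1f/f replicate 4 and Wnk1d/d replicate 2 together, chosen after seeing the data, the 5 isoforms above 1 FPKM in both genotypes kept an adjusted p under 0.05 and 18 smooth muscle genes were DEGs.

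With 1 library left out the difference in share ranged from -3.13 to -1.59 percentage points for Acta2, 13.0 to 16.2 for Actg2, 0.494 to 0.953 for Acta1, 0.0346 to 0.0408 for Actc1, -11.8 to -7.99 for Actb and -3.78 to -2.59 for Actg1. Within the family the difference was -13.4 points for Acta2, -0.162 for Acta1, 2.08 for Actb and -2.08 for Actg1. As a log2 ratio to the cytoplasmic isoforms it was 0.62 for Acta2 and 0.93 for Acta1, and 0.20 for Actb to Actg1, or -0.20 for Actg1 to Actb. Without Actg2 in the sum it was 8.23 points for Acta2 and 2.21 for Acta1. These shifts follow from the denominators.

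With 1 library left out there were 520 to 866 DEGs with higher levels and 499 to 1004 with lower levels, with 11 to 20 smooth muscle and 5 to 7 striated genes among the former. Of the 5 isoforms above 1 FPKM in both genotypes 3 were DEGs in 7 of 9 such fits, where Actb was lost, and 4 in the others (with Actc1, 4 to 5 against 5 in all libraries). They were also 3 without the filter and after quantile normalization. Without Wnk1d/d replicate 3 there were 499 with lower levels, against 763.

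Replicate numbers are shared by the genotypes but belong to different mice, and libraries of the same number did not deviate together (r = -0.27 to 0.02 over 4 numbers, with 0 of 4 correlating best with their own number). A replicate block uses up degrees of freedom and takes Wnk1d/d replicate 5 out of the comparison. With the block the log2 fold change was 1.11 for Acta2, 1.93 for Actg2, 1.42 for Acta1, 0.51 for Actb and 0.39 for Actg1, none with an adjusted p under 0.05 (0.0656 to 0.212). There were 132 DEGs with higher and 86 with lower levels, and 0 of the 5 isoforms, 0 smooth muscle genes and 2 striated genes were among the former. The 1 isoform among them was Actc1, which had to differ to pass the filter and is no support. The differences in share within numbers were 14.3 points for Actg2, 0.0358 for Actc1, -9.96 for Actb and -2.99 for Actg1, where 16 arrangements allow no exact permutation p under 0.125.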
